A study of Saccharomyces cerevisiae with 24 samples.

Results

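The 8 genes of lysine synthesis in Saccharomyces cerevisiae, LYS20, LYS21, LYS4, LYS12, LYS2, LYS9, LYS1 and LYS14, were followed over 4 strains with and without caffeine. They were chosen by name, as the 7 genes for enzymes that serve this pathway alone and the gene of its activator, and they are 8 of the 6713 transcripts measured. All 8 were among the 6400 transcripts that passed the filter on low counts.

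RNA from cultures of 4 strains in synthetic defined medium was sequenced in 24 libraries, 3 for each of 8 groups. The strains were YPS606, Y55, UWOPS87_2421 (spelled as in the sample titles) and BY4742, a laboratory strain of the S288C background. Each was grown either with 20 mM caffeine for 4 h or without it, and all cultures were taken at an OD of 0.4. The LYS2 state of BY4742 goes with all its other differences from the other strains, so these cannot be told apart. The amino acids of the medium are not given in the sources used here. Nor is it said that the 3 libraries of a group came from separate cultures. The p-values measure only spread between libraries, pooled in a fit of all 24, and not that of the groups compared alone. Without caffeine the SD of LYS20 was 33.4% of its mean in Y55 and 8.95% in UWOPS87_2421. The standard error of its log2 difference from BY4742 was 0.18 for each.

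Fungi make lysine from 2-oxoglutarate and acetyl-CoA through alpha-aminoadipate. Homocitrate synthase, encoded by the paralogs LYS20 and LYS21, takes the first step and is inhibited by lysine, and homoaconitase (LYS4) and homoisocitrate dehydrogenase (LYS12) follow in the mitochondrion. Alpha-aminoadipate reductase (LYS2) then makes alpha-aminoadipate semialdehyde, which the saccharopine dehydrogenases encoded by LYS9 and LYS1 turn into saccharopine and lysine. Lys14 is a zinc cluster activator of these genes that uses the semialdehyde as its coinducer, and Gcn4 activates amino acid synthesis genes in general when amino acids are short. BY4742 carries a deletion of LYS2 and needs lysine from its medium.

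The members lie on 4 chromosomes of the R64 genome. Each is 1 coding exon that overlaps no other annotated gene. LYS20 (YDL182W) is at chrIV:133437-134723, LYS21 (YDL131W) at chrIV:227393-228715 and LYS4 (YDR234W) at chrIV:931129-933210, all on the plus strand. On the minus strand are LYS14 (YDR034C) at chrIV:509737-512109, LYS12 (YIL094C) at chrIX:186517-187632, LYS1 (YIR034C) at chrIX:419615-420736, LYS2 (YBR115C) at chrII:469748-473926 and LYS9 (YNR050C) at chrXIV:714048-715388.

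The palindrome TCCNNNGGA, the core of the element that Lys14 binds, was searched on both strands of the 400 bases before each start codon. It stood before 5 of the 8 members, and before 277 of 5988 genes in all (4.63%). The matches are shown because Lys14 is the activator of the pathway itself, with the palindrome in capitals and 12 bases to each side, 5′ to 3′ on the strand of the gene.
LYS1, chrIX:420912-420944, minus strand: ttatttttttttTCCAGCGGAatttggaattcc
LYS9, first match, chrXIV:715593-715625, minus strand: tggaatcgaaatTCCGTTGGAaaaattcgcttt
LYS9, second match, chrXIV:715531-715563, minus strand: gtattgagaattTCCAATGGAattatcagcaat
LYS12, chrIX:187794-187826, minus strand: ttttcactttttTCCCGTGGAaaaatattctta
LYS14, chrIV:512305-512337, minus strand: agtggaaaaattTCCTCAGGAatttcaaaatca
LYS21, chrIV:227051-227083, plus strand: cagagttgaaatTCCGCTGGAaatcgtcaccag

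The matches began between 163 and 330 bases before the start codon, and LYS9 was the member with more than 1. The letters TGACTCA, a site for Gcn4, stood on either strand before LYS1, LYS2 and LYS14 and before 203 of 5988 genes (3.39%). The sites are shown in the same way, with the Gcn4 letters in capitals.
LYS1, chrIX:420968-420998, minus strand: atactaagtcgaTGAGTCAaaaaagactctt
LYS2, chrII:474102-474132, minus strand: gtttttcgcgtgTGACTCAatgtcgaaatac
LYS14, chrIV:512341-512371, minus strand: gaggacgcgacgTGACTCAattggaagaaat
LYS1 and LYS14 thus held both motifs, and LYS4 and LYS20 held neither in this window. These are matches of letters in the reference genome, and the sequences of the other strains were not used here.

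Libraries held between 8714049 and 29524968 estimated counts (median 21107258). The most shallow were Y55 library 43 without caffeine and Y55 library 39 in caffeine, where the libraries carry the numbers of their labels. In the BY4742 libraries LYS2 had at most 2 counts, URA3 at most 2 and LEU2 at most 5, which are genes this strain lacks. HIS3, listed with URA3 and LEU2 as a marker gene, went the other way. The edgeR test called it lower in YPS606, Y55 and UWOPS87_2421 than in BY4742, with and without caffeine. URA3 ranged from 1 to 2114 counts between the 3 UWOPS87_2421 libraries without caffeine and from 41 to 1414 between those of Y55, so libraries of 1 label were not alike at this locus. UWOPS87_2421 and Y55 differed from each other in 4 genes, all of the 2-micron plasmid, with and without caffeine (0.0625% of 6400). Their values are therefore not separate support for each other. The summed level of 4 alpha-specific genes was between 1020 and 3970 CPM in every library and that of 4 a-specific genes between 4.69 and 43.4 CPM, but both moved with caffeine, as given beside the responses.

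LYS2 was at or near 0 in BY4742 and present in the other strains. Its counts, scaled to the size of each library with TMM factors (CPM), were 264, 268 and 186 in the YPS606 libraries, 171, 147 and 232 in Y55 and 182, 185 and 201 in UWOPS87_2421, against 0, 0.0919 and 0 in BY4742, all without caffeine. The groups do not overlap, and the single BY4742 value above 0 stands for 2 counts. Summed over libraries, the ratio to BY4742 was 6760 in YPS606 (95% exact interval from 1870 to 55800), 4900 in Y55 (1360 to 40400) and 5320 in UWOPS87_2421 (1470 to 44000), with intervals for counting error only. In caffeine LYS2 averaged 198 ± 12.7 CPM in YPS606, 164 ± 15.8 CPM in Y55 and 177 ± 9.82 CPM in UWOPS87_2421 (SD, n = 3 each), against 0 counts in every BY4742 library. Taking 3 counts per BY4742 library as the floor, LYS2 in caffeine was at least 1540-fold higher in YPS606, at least 1270-fold higher in Y55 and at least 1370-fold higher in UWOPS87_2421. Its neighbours were not missing from BY4742, where RAD16, a DNA repair gene, averaged 41.7 ± 3.08 CPM and TKL2, a transketolase gene, 16.9 ± 2.40 CPM (SD, n = 3) without caffeine.

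**Figure D1:**
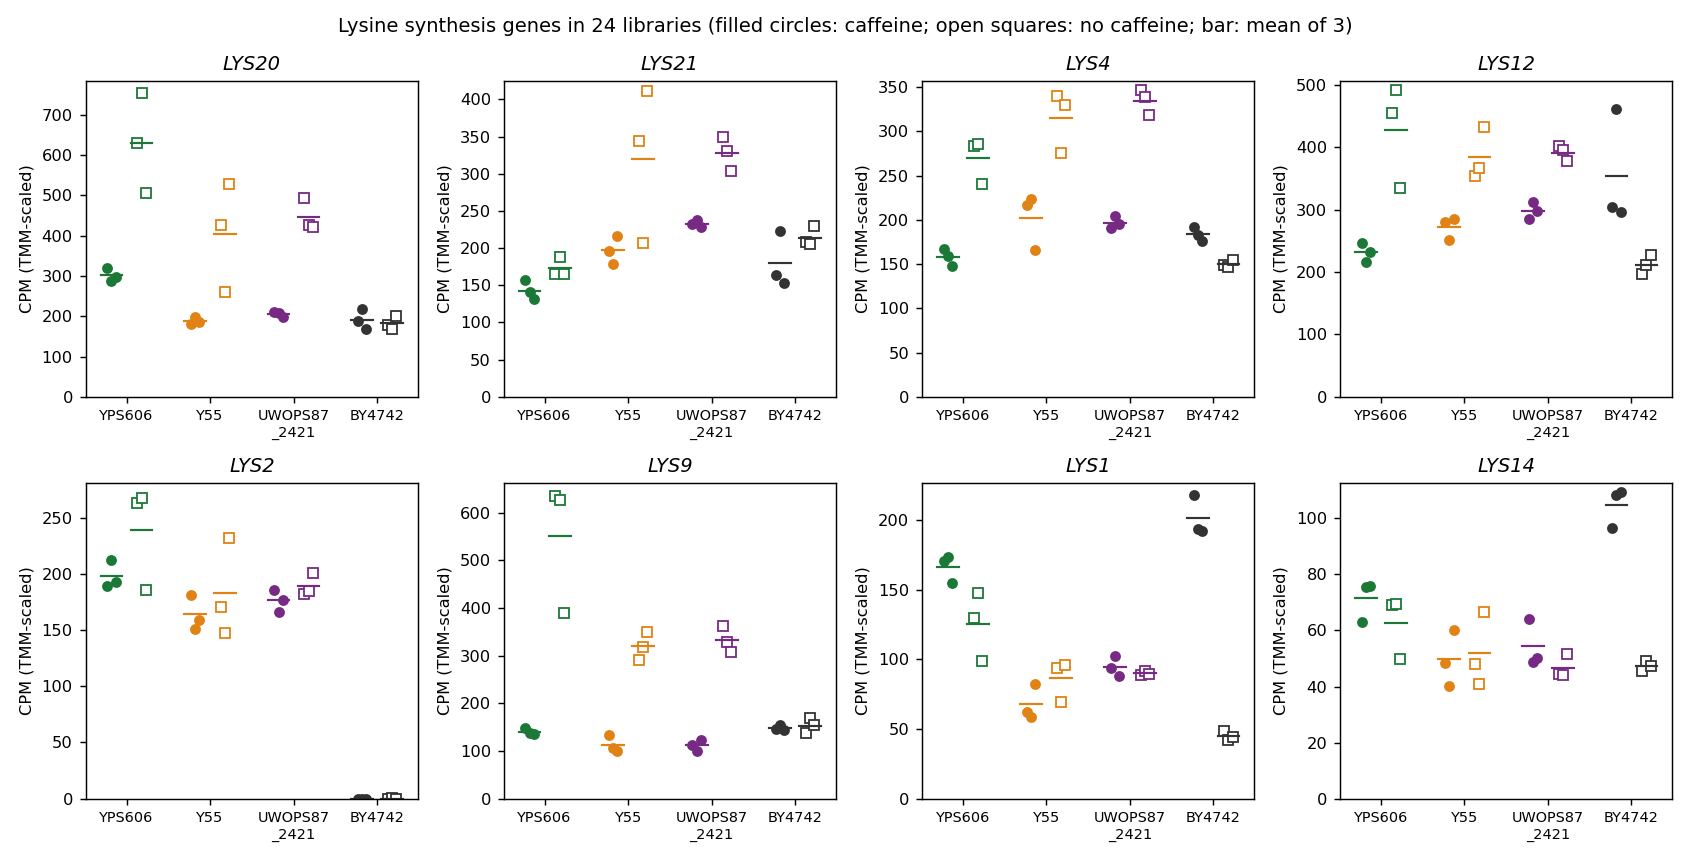
CPM of each member in the 24 libraries, with caffeine (filled circles) to the left of no caffeine (open squares) in each strain; bars are means of 3 libraries. Without caffeine, LYS9 and LYS20 of the YPS606 libraries reach 637 and 755 CPM, while in caffeine LYS1 and LYS14 are highest in BY4742.

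Without caffeine, most of the other members were higher in the 3 strains with LYS2 than in BY4742. The edgeR quasi-likelihood test at an adjusted p-value under 0.05 called 5 of the 7 others higher in YPS606, 6 in Y55 and 6 in UWOPS87_2421, and none lower. Of all 6400 genes it called 38.1% in YPS606 (21% higher and 17.1% lower), 33.9% in Y55 (20% and 13.9%) and 36.6% in UWOPS87_2421 (20.8% and 15.8%). The median log2 fold change of the 7 was 1.01 in YPS606, 0.95 in Y55 and 1.01 in UWOPS87_2421, beside 0.04, 0.04 and 0.03 over all genes. These 3 comparisons share the BY4742 libraries.

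LYS20, for the homocitrate synthase isoform of the first step, had 629, 755 and 506 CPM in YPS606, 427, 260 and 529 CPM in Y55 and 493, 427 and 421 CPM in UWOPS87_2421, against 178, 169 and 201 CPM in BY4742. Every library of the 3 strains was above all BY4742 libraries. The log2 fold change to BY4742 was 1.79 ± 0.18 in YPS606, 1.15 ± 0.18 in Y55 and 1.29 ± 0.18 in UWOPS87_2421 (SE, edgeR adjusted p = 1.19e-07, 3.71e-05 and 8.79e-06). Its paralog LYS21 did not follow in YPS606, with 166, 188 and 165 CPM there, against 208, 205 and 229 CPM in BY4742. Its estimate there was -0.31 ± 0.17 (adjusted p = 0.174). LYS21 was higher in UWOPS87_2421, at 0.62 ± 0.17 (adjusted p = 0.00842). In Y55 it was 0.58 ± 0.17 (adjusted p = 0.0132), with 1 Y55 library inside the BY4742 range, and this call was lost without library 25, 27, 33 or 43 (adjusted p from 0.0552 to 0.145). Here and below, the separate values of LYS20 and LYS21 rest on how shared reads were divided between them.

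The genes of both mitochondrial steps were higher in all 3 strains. LYS4 had 284, 286 and 241 CPM in YPS606, 340, 276 and 330 CPM in Y55 and 347, 339 and 319 CPM in UWOPS87_2421, against 149, 147 and 155 CPM in BY4742. LYS12 had 455, 492 and 335 CPM in YPS606, 355, 366 and 433 CPM in Y55 and 401, 396 and 378 CPM in UWOPS87_2421, against 198, 211 and 228 CPM in BY4742. Neither gene overlapped between BY4742 and the other strains. The log2 fold changes of LYS4 were 0.85 ± 0.11, 1.07 ± 0.11 and 1.16 ± 0.11 and those of LYS12 1.01 ± 0.15, 0.86 ± 0.15 and 0.89 ± 0.15 in YPS606, Y55 and UWOPS87_2421 (SE), with edgeR adjusted p-values of 0.000114 or less.

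LYS9, the saccharopine reductase gene of the last but one step, had 637, 626 and 390 CPM in YPS606, 291, 319 and 350 CPM in Y55 and 363, 329 and 308 CPM in UWOPS87_2421, against 138, 168 and 154 CPM in BY4742. Its log2 fold change was 1.85 ± 0.15 in YPS606 (adjusted p = 5.16e-09), 1.06 ± 0.15 in Y55 (1.01e-05) and 1.12 ± 0.15 in UWOPS87_2421 (4.94e-06, SE, edgeR). LYS1, of the last step, had 130, 148 and 99.1 CPM in YPS606, 93.8, 69.5 and 95.7 CPM in Y55 and 88.6, 91.5 and 89.5 CPM in UWOPS87_2421, against 48.3, 41.9 and 44.0 CPM in BY4742. Both genes were above BY4742 in every library of the other strains. LYS1 differed by 1.49 ± 0.15, 0.95 ± 0.14 and 1.01 ± 0.14 on the log2 scale (SE, edgeR adjusted p = 5.58e-08, 2.52e-05 and 1.13e-05).

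The activator gene LYS14 did not pass the test in any strain without caffeine. It had 69.0, 69.6 and 49.8 CPM in YPS606, 48.0, 41.0 and 66.7 CPM in Y55 and 44.3, 44.3 and 51.6 CPM in UWOPS87_2421, against 45.5, 49.2 and 47.3 CPM in BY4742. The YPS606 libraries were all above those of BY4742, and the other strains overlapped them. The log2 fold change was 0.41 ± 0.17 in YPS606 (edgeR adjusted p = 0.0647, and 0.0151 without library 42), 0.13 ± 0.17 in Y55 (0.617) and -0.02 ± 0.17 in UWOPS87_2421 (0.944, SE).

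**Figure D2:**
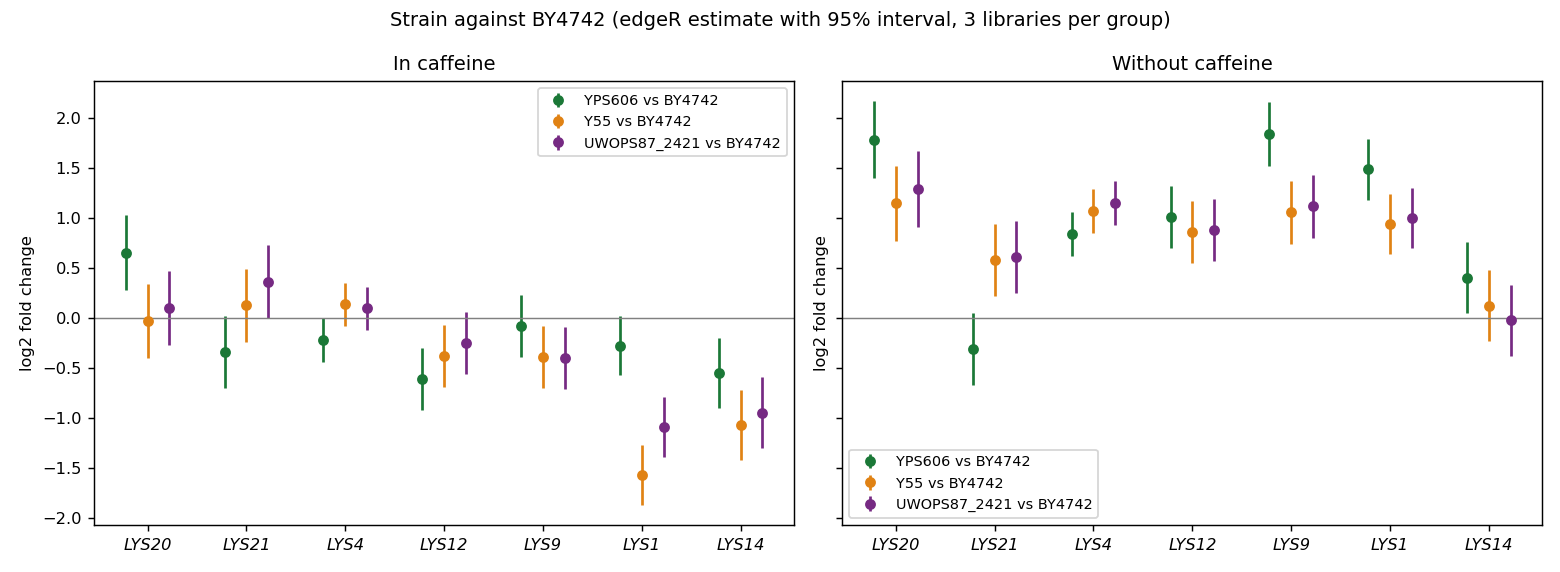
Log2 fold change to BY4742 (edgeR estimate with 95% interval, 3 libraries per group) of the 7 members other than LYS2, in caffeine (left) and without (right), for YPS606, Y55 and UWOPS87_2421. Without caffeine LYS20, LYS4, LYS12, LYS9 and LYS1 lie above 0 in all 3 strains, and in caffeine LYS1 of Y55 and UWOPS87_2421 lies at -1.57 and -1.09.

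Among the strains with LYS2, YPS606 stood apart. Against Y55 without caffeine it had 3 members higher and 1 lower, where 19.6% of all genes were called (8.53% higher and 11.1% lower). Against UWOPS87_2421 it had 3 higher and 2 lower, where 26.5% were called (13.2% and 13.3%). LYS9 was higher by 0.78 ± 0.15 against Y55 and by 0.72 ± 0.15 against UWOPS87_2421 on the log2 scale, and LYS21 was lower, at -0.89 ± 0.17 and -0.92 ± 0.17 (SE, edgeR adjusted p of 0.00122 or less for all 4). LYS1 at 0.54 ± 0.14 (adjusted p = 0.00991) and LYS20 at 0.64 ± 0.18 (0.0154) were higher than in Y55, and both calls were lost without library 34 (0.0631 and 0.0824). The LYS20 libraries of YPS606 and Y55 overlapped, as 1 Y55 library was above the lowest of YPS606. Against UWOPS87_2421, LYS1 was at 0.48 ± 0.14 (0.0161), LYS20 at 0.50 ± 0.18 (0.0462) and LYS4 at -0.31 ± 0.10 (0.0334), and each of these calls could be lost. LYS1 was not called without library 28 or 34 (highest adjusted p 0.0882), LYS20 without 26, 28, 34, 36 or 44 (0.185) or with a block for the sets of consecutive library numbers (0.0605), and LYS4 without 28, 36 or 42 (0.139). An edgeR fit of the YPS606 and Y55 libraries alone called 0 of the members.

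LYS2 itself was not called, at 0.39 ± 0.17 in YPS606 against Y55 (SE, edgeR adjusted p = 0.119) and 0.34 ± 0.17 against UWOPS87_2421 (0.149). It was called against Y55 without library 42 or 43 (highest adjusted p 0.0191) and against UWOPS87_2421 without 42 (0.03003). LYS14 was called higher against Y55 without library 43 (0.0425) and against UWOPS87_2421 without 42 (0.0202), and LYS4 lower against Y55 without 35 (0.0499). Library 42 had the lowest CPM of the 3 YPS606 libraries without caffeine in every member.

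UWOPS87_2421 and Y55 differed in none of the 8 members without caffeine, where the background was 0.0625%, by edgeR or by DESeq2, and 0 had an unadjusted p-value under 0.05. The 95% intervals of these differences reached 0.52 on the log2 scale for LYS20 and -0.50 for LYS14. In caffeine the adjusted test again called 0 by both tools, and 1, LYS1, had an unadjusted p-value under 0.05, with a difference of 0.48 ± 0.14 (SE, edgeR adjusted p = 1).

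Under caffeine, LYS1, LYS14, LYS12 and LYS4 rose in BY4742, and the calls in the other strains were falls except for LYS1 in YPS606. Caffeine raised 4 of 7 members in BY4742 and lowered 0, where 52.5% of all genes were called (27.5% higher and 25% lower), so the share of members called there was near that of all genes. It raised 1 and lowered 4 of 8 in YPS606, where 40.5% were called (20.5% and 20%). In Y55 it raised 0 and lowered 5, against a background of 14.4% (8.64% and 5.77%), and in UWOPS87_2421 it raised 0 and lowered 4, against 27.7% (14.7% and 13%). An edgeR fit of the Y55 libraries alone called 1 of the members, and 119 genes in all instead of 922. For UWOPS87_2421 such a fit called 2786 genes instead of 1771. The median log2 change of the 7 members other than LYS2 was -0.77 in YPS606, -0.64 in Y55, -0.50 in UWOPS87_2421 and 0.29 in BY4742, beside medians of all genes between -0.01 and 0.03. The unscaled library totals gave another zero point: without TMM factors, the median of all genes under caffeine was 0.42 in BY4742, 0.25 in YPS606, 0.22 in UWOPS87_2421 and 0.12 in Y55. On that scale 84.4% of the genes called in BY4742 were higher (52.4% with TMM factors), and likewise 84.4% in YPS606 (50.5%), 85% in Y55 (60%) and 86% in UWOPS87_2421 (53%). The changes given here are relative to the TMM zero.

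The mating type genes moved with caffeine as well. The summed level of the 4 alpha-specific genes was between 1240 and 1480 CPM in YPS606 in caffeine, against 2180 to 2450 CPM without, between 1700 and 2050 CPM in Y55, against 2250 to 2380 CPM, between 1390 and 1760 CPM in UWOPS87_2421, against 2290 to 2330 CPM, and between 1020 and 1380 CPM in BY4742, against 3510 to 3970 CPM. The edgeR test called 4, 2, 3 and 4 of these 4 genes lower in YPS606, Y55, UWOPS87_2421 and BY4742. The 4 a-specific genes summed to between 28.4 and 33.4 CPM in YPS606 in caffeine, against 4.69 to 5.33 CPM, between 14.5 and 25.5 CPM in Y55, against 6.16 to 8.35 CPM, between 19.7 and 26.1 CPM in UWOPS87_2421, against 6.93 to 8.79 CPM, and between 36.4 and 43.4 CPM in BY4742, against 8.24 to 8.86 CPM, with 3, 2, 3 and 4 of 4 called higher. MFA1, an a-factor gene, averaged at most 0.0953 CPM in each group other than BY4742 in caffeine, where it had 1.89 CPM. The part of these shifts in the responses of the lysine genes was not tested.

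LYS1 had the largest rise of the members. It had 218, 194 and 192 CPM in BY4742 in caffeine, against 48.3, 41.9 and 44.0 CPM without it, 4.50-fold higher or 2.17 ± 0.15 on the log2 scale (SE, edgeR adjusted p = 1.46e-09). In YPS606 it had 171, 173 and 155 CPM in caffeine, against 130, 148 and 99.1 CPM without, at 0.41 ± 0.14 (0.0270), a call lost without library 30, 38 or 42 (adjusted p from 0.0717 to 0.133). It averaged 67.8 ± 12.7 CPM in Y55 in caffeine, against 86.3 ± 14.6 CPM without, and 94.5 ± 7.14 CPM in UWOPS87_2421 in caffeine, against 89.9 ± 1.48 CPM without (SD, n = 3 each). These libraries overlapped, and the changes of -0.34 ± 0.14 (edgeR adjusted p = 0.116) and 0.07 ± 0.14 (0.750) were not called. Without library 35 or 47 the fall in Y55 passed the test (0.0288 and 0.0391).

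LYS14, the activator gene, rose in BY4742 and was not called in the other strains. It had 96.7, 108 and 109 CPM in BY4742 in caffeine, against 45.5, 49.2 and 47.3 CPM without it, at 1.15 ± 0.17 (SE, edgeR adjusted p = 1.45e-05). Its changes were 0.19 ± 0.17 in YPS606, -0.05 ± 0.17 in Y55 and 0.22 ± 0.17 in UWOPS87_2421, with overlapping libraries in each. On library totals the change in YPS606 was 0.46 and was called (adjusted p = 0.0487). LYS12 rose in BY4742, with 305, 462 and 297 CPM in caffeine, against 198, 211 and 228 CPM without, at 0.74 ± 0.15 (0.000339). The groups did not overlap, although library 37 stood well above the other caffeine libraries. LYS4 rose by a smaller amount, with 192, 183 and 177 CPM in caffeine, against 149, 147 and 155 CPM without, at 0.29 ± 0.11 (0.0244, and 0.0812 without library 29).

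LYS9 had the largest fall in the other strains and no change that passed the test in BY4742. In YPS606 it had 149, 137 and 136 CPM in caffeine, against 637, 626 and 390 CPM without it, which is 0.255 times the level without caffeine and -1.97 ± 0.15 on the log2 scale (SE, edgeR adjusted p = 1.44e-08). In Y55 it averaged 113 ± 17.1 CPM in caffeine, against 320 ± 29.2 CPM without, and in UWOPS87_2421 112 ± 11.7 CPM, against 333 ± 27.8 CPM (SD, n = 3 each). The log2 changes there were -1.498 ± 0.15 (2.33e-06) and -1.57 ± 0.15 (6.84e-07), and no caffeine library reached a library without caffeine. In BY4742 it had 146, 155 and 143 CPM in caffeine, against 138, 168 and 154 CPM without, and the ranges overlapped. That change was -0.05 ± 0.15 (0.800), and it was 0.35 (0.0272) on library totals without TMM factors, so its direction depends on the zero point.

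LYS20 fell to 302 ± 16.7 CPM in YPS606 in caffeine, against 630 ± 124 CPM without, to 188 ± 9.18 CPM in Y55, against 405 ± 135 CPM, and to 206 ± 6.43 CPM in UWOPS87_2421, against 447 ± 40.0 CPM (SD, n = 3 each). The groups did not overlap in any of the 3 strains. The log2 changes were -1.06 ± 0.18, -1.11 ± 0.18 and -1.12 ± 0.18 (SE, edgeR adjusted p = 0.000129, 0.000355 and 0.000153). In BY4742 LYS20 averaged 192 ± 24.2 CPM in caffeine, against 182 ± 16.6 CPM without, a change of 0.07 ± 0.18 (0.763) that was 0.46 (0.0316) on library totals.

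LYS4 also fell in the 3 strains with LYS2, and LYS12 in YPS606 and Y55. LYS4 changed by -0.77 ± 0.11 in YPS606, -0.64 ± 0.11 in Y55 and -0.77 ± 0.11 in UWOPS87_2421 (SE, edgeR adjusted p = 1.16e-05, 0.000361 and 2.93e-05). LYS12 changed by -0.88 ± 0.15 in YPS606 (0.000122) and by -0.50 ± 0.15 in Y55 (0.0298), a call that was lost without library 31, 39, 43 or 47 (adjusted p from 0.0627 to 0.0962) and on library totals (0.0694). In UWOPS87_2421 it was -0.39 ± 0.15 (0.0538), with no overlap between the groups.

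LYS21 fell in Y55 at -0.70 ± 0.17 (SE, edgeR adjusted p = 0.0105, and 0.0606 without library 43). It fell in UWOPS87_2421 at -0.50 ± 0.17 (0.0392), which was lost without any single 1 of the 6 libraries (from 0.0506 to 0.107), on library totals (0.239) and with a block for sets of library numbers (0.0527). It was at -0.28 ± 0.17 in YPS606 and -0.25 ± 0.17 in BY4742 (0.14 on library totals), neither called. LYS2 did not pass the test in the strains that have it, at -0.27 ± 0.17 in YPS606 (0.209), -0.16 ± 0.17 in Y55 (0.571) and -0.10 ± 0.17 in UWOPS87_2421 (0.695), with 95% intervals that reach -0.62, -0.51 and -0.45. Without library 42, LYS2 fell in YPS606 as well (adjusted p = 0.0376).

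**Figure D3:**
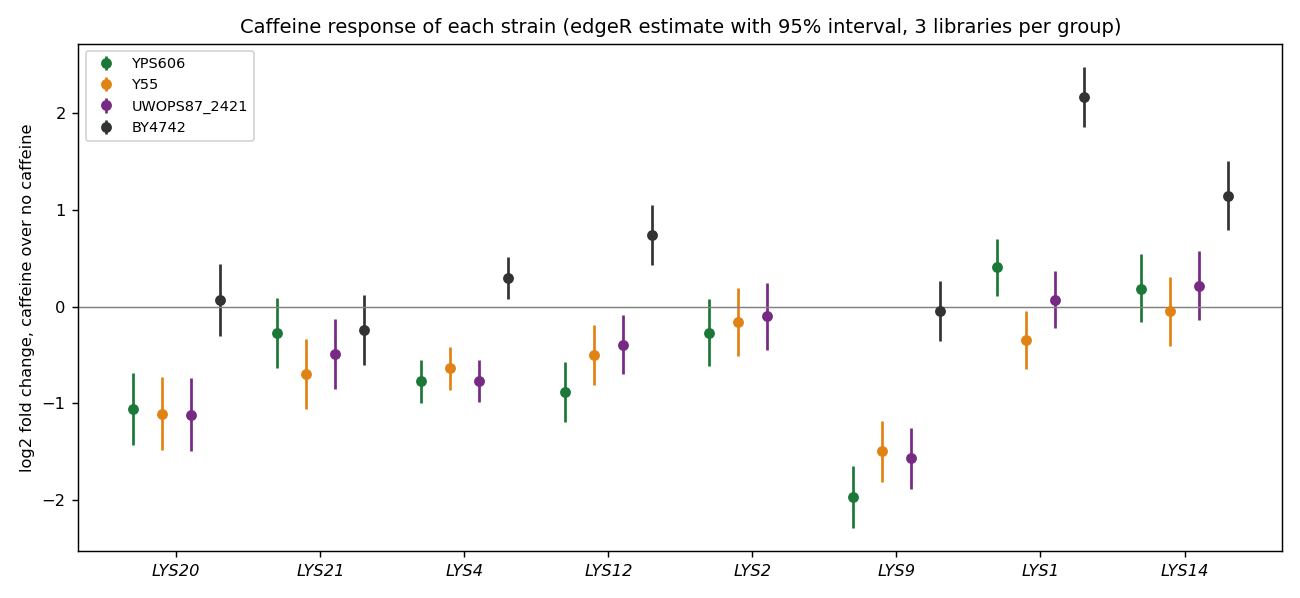
Log2 fold change of caffeine over no caffeine (edgeR estimate with 95% interval, 3 libraries per group) for each member and strain; LYS2 of BY4742 is left out because it has no more than 2 counts. LYS1, LYS14, LYS12 and LYS4 of BY4742 lie above 0, and LYS9 and LYS20 of the other 3 strains lie between -1.97 and -1.06.

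The difference between responses was tested itself, as an interaction in the edgeR fit. In each of YPS606, Y55 and UWOPS87_2421, 6 of 7 members responded lower than in BY4742 and 0 higher, where 12.8%, 29.1% and 22.2% of all genes were called (6.86%, 15.2% and 11% higher and 5.94%, 13.9% and 11.2% lower). On library totals 30.9%, 20.3% and 24.6% of the genes called were higher, beside 53.6%, 52.2% and 49.5% with TMM factors, and 6, 7 and 6 members were lower. The 6 were LYS1, LYS4, LYS9, LYS12, LYS14 and LYS20 in every case, and none of these calls was lost when any 1 library was left out. LYS1 had the largest difference in Y55 and UWOPS87_2421, at -2.51 ± 0.20 (adjusted p = 1.34e-07) and -2.10 ± 0.20 (1.32e-06, SE). In YPS606 LYS9 was at -1.92 ± 0.21 (9.35e-06), LYS1 at -1.77 ± 0.20 (1.07e-05) and LYS12 at -1.62 ± 0.21 (4.32e-05). For LYS21 the difference was -0.03 ± 0.25 in YPS606, -0.45 ± 0.25 in Y55 and -0.25 ± 0.25 in UWOPS87_2421, with 95% intervals reaching -0.54, -0.97 and -0.76. In Y55 it passed the test without library 35 (adjusted p = 0.00695). With the counts of LYS20 and LYS21 added before the fit, the differences of -0.78, -0.86 and -0.77 were called (0.0439, 0.0142 and 0.0322). The 3 tests share the BY4742 libraries of both conditions. The response of the alpha-specific genes differed in the same tests, with 2 of 4 called higher than in BY4742 in YPS606 and 4 of 4 in both Y55 and UWOPS87_2421, and 0, 0 and 2 of 4 a-specific genes called lower.

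Between the other strains the responses were closer. YPS606 and Y55 differed in 1 of 8 members, LYS1, where 5.14% of all genes were called (4.09% higher and 1.05% lower), at 0.75 ± 0.20 (SE, edgeR adjusted p = 0.0329). This call was lost without any 1 of libraries 26, 27, 30, 31, 38, 39 and 43 (adjusted p from 0.0515 to 0.0851). LYS9 was called as well without library 42 (0.0120), and LYS21 without library 35 (0.0327). YPS606 and UWOPS87_2421 differed in 0 members by edgeR and by DESeq2, where 4.03% of all genes were called (2.97% and 1.06%), with 1 member at an unadjusted p-value under 0.05. Without library 42, LYS9 was called (0.0329). UWOPS87_2421 and Y55 differed in 0 by either tool, where 0% were called, with 0 members at that level.

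In caffeine the strains were no longer above BY4742 as a group. Besides LYS2, 1 of 7 members was higher and 2 lower in YPS606, where 46.5% of all genes were called (24.5% higher and 22% lower). In Y55 0 were higher and 4 lower, against 59.1% (30.4% and 28.7%), and in UWOPS87_2421 0 higher and 3 lower, against 54.5% (28.1% and 26.4%). The share of members called was not above the background in any strain. LYS1 was lower in Y55 at -1.57 ± 0.14 (SE, edgeR adjusted p = 1.70e-08) and in UWOPS87_2421 at -1.09 ± 0.14 (2.38e-06), and YPS606 was at -0.28 ± 0.14 (0.115). LYS14 was lower in all 3 strains, at -0.55 ± 0.17 in YPS606 (0.0109, and 0.0565 without library 30), -1.07 ± 0.17 in Y55 (2.24e-05) and -0.95 ± 0.17 in UWOPS87_2421 (9.63e-05). LYS20 was higher in YPS606 at 0.66 ± 0.18 (0.00517).

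The remaining calls in caffeine were small. LYS12 was lower in YPS606 at -0.61 ± 0.15 (SE, edgeR adjusted p = 0.00211) and in Y55 at -0.38 ± 0.15 (0.0339, and 0.343 without library 37 and 0.110 without library 39). LYS9 was lower in Y55 at -0.39 ± 0.15 (0.0314) and in UWOPS87_2421 at -0.40 ± 0.15 (0.0286). Both LYS9 calls were lost without any 1 of 4 libraries, which were 29, 37, 39 and 47 for Y55 and 29, 32, 37 and 40 for UWOPS87_2421 (highest adjusted p 0.122 and 0.113). LYS4 and LYS21 were not called in any of the 3 strains, with estimates between -0.34 and 0.37. Without library 47 LYS4 was called in Y55 (0.0283), and without library 37 LYS21 was called in UWOPS87_2421 (0.0145). On library totals the medians of all genes in these comparisons were between -0.27 and -0.18, and 34.8%, 30.9% and 31.1% of the genes called in YPS606, Y55 and UWOPS87_2421 were higher, beside 52.6%, 51.5% and 51.6% with TMM factors. YPS606 then had 2 members higher, LYS2 included, and 5 lower.

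YPS606 also stood apart from Y55 and UWOPS87_2421 in caffeine. It had 3 members higher and 1 lower than Y55, where 28.1% of all genes were called (14.4% higher and 13.8% lower, and 69.5% of the calls higher on library totals, beside 51.1%). It had 2 higher and 2 lower than UWOPS87_2421, where 23.9% were called (12.4% and 11.5%, and 62.6% higher on library totals, beside 51.9%). LYS1 was higher by 1.29 ± 0.14 against Y55 (SE, edgeR adjusted p = 1.04e-06) and by 0.82 ± 0.14 against UWOPS87_2421 (0.000238) on the log2 scale. LYS20 was higher than in Y55 at 0.68 ± 0.18 (0.00716) and LYS21 lower than in UWOPS87_2421 at -0.70 ± 0.17 (0.00543). The other 4 calls had estimates between -0.36 and 0.56, and each was lost when any 1 of several libraries was left out. Against Y55, LYS14 was not called without library 31, 38, 39 or 46 (highest adjusted p 0.129) and LYS4 without 31, 39 or 46 (0.103), while LYS9 was called without 31 (0.0411). Against UWOPS87_2421, LYS20 was not called without any 1 of the 6 libraries (0.0915) and LYS4 without 32, 38, 40, 46 or 48 (0.126).

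Within a library, levels per length can be set side by side in TPM, which is scaled for the length of each transcript. Without caffeine LYS12 had the highest TPM of the members in Y55 (282 ± 34.4), UWOPS87_2421 (272 ± 5.32) and BY4742 (158 ± 9.65), and LYS20 in YPS606 (343 ± 42.4, SD, n = 3 each). In YPS606 the next in order, LYS9 at 311 ± 53.6 TPM, lay within 1 SD of LYS20, and LYS12 at 295 ± 32.9 TPM lay below it by more than 1 SD, although its highest library was above the lowest of LYS20. LYS14 had the lowest TPM in each strain with LYS2, between 17.2 and 23.0 on average, and LYS2 came next, between 33.2 and 41.7. In BY4742 the order changed with caffeine: LYS1 was sixth of 8 at 30.2 ± 2.44 TPM without it and second in caffeine at 191 ± 21.6 TPM. The order changed in the other strains as well. LYS1 went from rank 6 at 78.4 ± 9.55 TPM to rank 3 at 128 ± 10.1 TPM in YPS606. LYS21 went from rank 4 to rank 2 in Y55 and in UWOPS87_2421.

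LYS20 and LYS21 are near-identical copies, so their separate values rest on how reads were divided. Their coding sequences were identical at 1175 of 1278 aligned bases (91.9%), and 46.5% of the 31-base stretches of LYS20 also stand in LYS21. The estimated counts of both were not whole in 22 of 24 libraries, while those of the other 6 members were whole in all. As a share of the TPM of both, LYS20 held 78.0 ± 2.47% in YPS606, 55.6 ± 0.543% in Y55 and 57.4 ± 1.16% in UWOPS87_2421, against 45.7 ± 0.855% in BY4742, without caffeine (SD, n = 3 each). No library of these strains overlapped BY4742, and YPS606 lay above all others. In caffeine the share was 67.7 ± 1.39% in YPS606, 48.6 ± 3.38% in Y55 and 46.6 ± 0.627% in UWOPS87_2421, against 51.5 ± 2.07% in BY4742. With the counts of both genes added before the fit, homocitrate synthase in YPS606 without caffeine was 0.999 above BY4742 on the log2 scale (edgeR adjusted p = 0.000135), and 0.15 above Y55 (0.598) and 0.06 above UWOPS87_2421 (0.853). The separate estimates of the copies thus differed between YPS606 and Y55 or UWOPS87_2421 in opposite directions, and the summed counts were not called. The same reference served all strains. Whether YPS606 reads were divided otherwise between the copies was not tested.

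**Figure D4:**
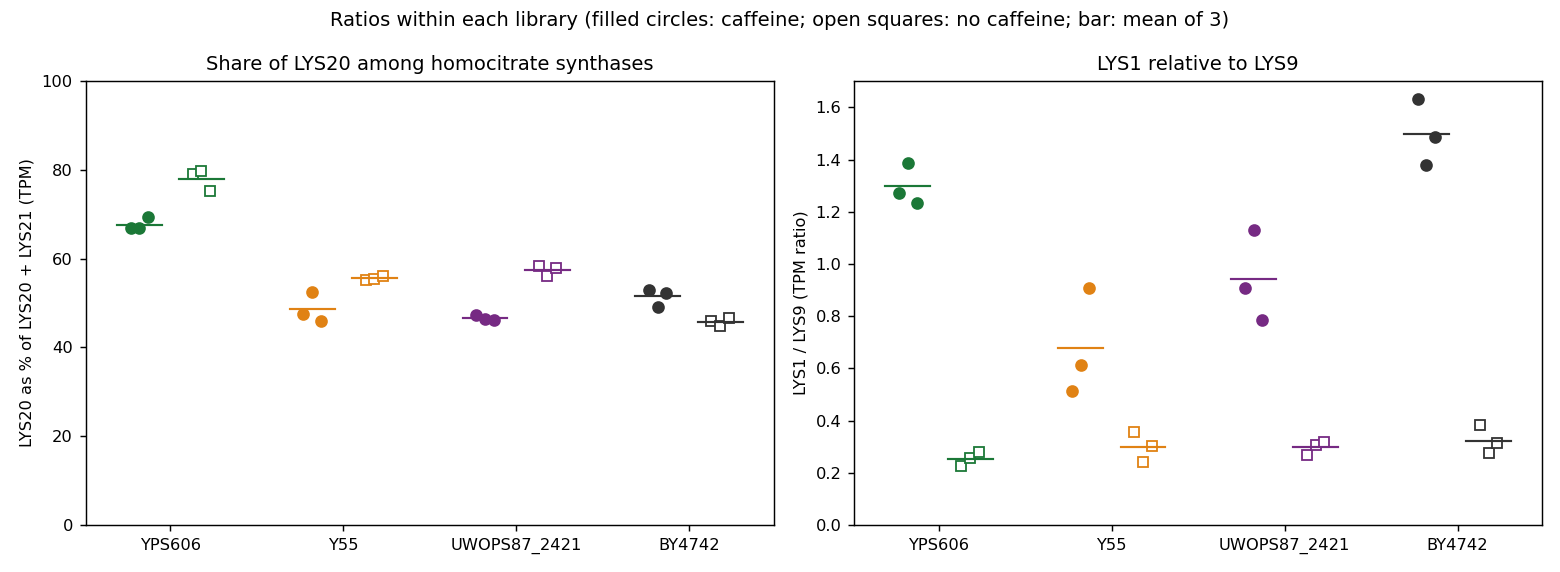
Share of LYS20 in the summed TPM of LYS20 and LYS21 (left) and LYS1 TPM over LYS9 TPM (right) in each library, with caffeine (filled circles) to the left of no caffeine (open squares); bars are means of 3 libraries. YPS606 has the highest LYS20 share in both conditions, and the LYS1 to LYS9 ratio is higher with caffeine in every strain.

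The genes of the last pair of steps shifted against each other with caffeine in all 4 strains. The TPM of LYS1 over that of LYS9, a ratio chosen after the values were seen and given without a test, was 1.30 ± 0.0811 in YPS606 in caffeine, against 0.254 ± 0.0263 without it. It was 0.679 ± 0.204 in Y55 in caffeine, against 0.300 ± 0.0565, 0.941 ± 0.174 in UWOPS87_2421, against 0.298 ± 0.0272, and 1.499 ± 0.126 in BY4742, against 0.324 ± 0.0546 (SD, n = 3 each). No caffeine library overlapped one without caffeine of its strain, and the ratio does not depend on how libraries are scaled to each other.

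Of 5 other genes that serve the pathway, 2 were called higher and 3 lower in YPS606 than in BY4742 without caffeine, and 2 higher and 2 lower in both Y55 and UWOPS87_2421. Of all genes, 38.1%, 33.9% and 36.6% were called in YPS606, Y55 and UWOPS87_2421. ODC2, a mitochondrial carrier of oxodicarboxylates, was higher without caffeine by 0.80 ± 0.16, 0.998 ± 0.16 and 1.02 ± 0.16 on the log2 scale, the direction of most members. ARO8, an aromatic and aminoadipate aminotransferase, was lower at -0.64 ± 0.11, -0.62 ± 0.11 and -0.64 ± 0.11, and LYS5, whose product activates Lys2, at -0.60 ± 0.11, -0.54 ± 0.11 and -0.43 ± 0.11 in YPS606, Y55 and UWOPS87_2421 (SE, edgeR adjusted p of 0.00453 or less).

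Of the 5 regulator genes listed (MKS1, GCN4, RTG1, RTG2 and RTG3), at most 1 was called in any strain against BY4742 without caffeine. Of all genes, 38.1%, 33.9% and 36.6% were called in YPS606, Y55 and UWOPS87_2421. GCN4 was at -0.25 ± 0.10 in UWOPS87_2421 (SE, edgeR adjusted p = 0.0495), and RTG1 at -0.56 ± 0.15 in YPS606 (0.00414). Caffeine changed 0 of the 5 in BY4742 and in YPS606, where 52.5% and 40.5% of all genes were called. It lowered 1 of 5 in each of Y55 and UWOPS87_2421, where 14.4% and 27.7% were called. MKS1, also known as LYS80 for its effect on lysine synthesis, was not among the regulators lowered. It had 76.8 ± 6.54 CPM in BY4742 in caffeine, against 66.5 ± 3.28 CPM without (SD, n = 3 each).

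Of 16 genes for the synthesis of other amino acids (histidine, arginine, tryptophan and the branched chains), 0 were higher and 13 lower in YPS606 than in BY4742 without caffeine, 3 higher and 10 lower in Y55, and 4 higher and 9 lower in UWOPS87_2421. Of all genes, 21%, 20% and 20.8% were called higher and 17.1%, 13.9% and 15.8% lower. The median log2 fold changes of the 16 were -0.92, -0.50 and -0.45. Most of these genes therefore had the opposite direction to most lysine genes. Caffeine raised 5 and lowered 2 of the 16 in BY4742, where 52.5% of all genes were called (27.5% higher and 25% lower). The share called there was not above that of all genes. It raised 13 and lowered 1 in YPS606, against 40.5% (20.5% and 20%). In Y55 it raised 6 and lowered 1, against 14.4% (8.64% and 5.77%). In UWOPS87_2421 it raised 8 and lowered 3, against 27.7% (14.7% and 13%). The lysine members that fell were 4 in YPS606, 5 in Y55 and 4 in UWOPS87_2421.

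Of 10 genes for lysine transport and charging, 4 were higher and 2 lower in YPS606 than in BY4742 without caffeine. In Y55 and in UWOPS87_2421, 3 were higher and 3 lower. The shares of all genes called were 38.1% in YPS606, 33.9% in Y55 and 36.6% in UWOPS87_2421. LYP1, the lysine permease, was higher at 0.47 ± 0.10, 0.59 ± 0.10 and 0.58 ± 0.10 (SE, edgeR adjusted p of 0.000468 or less). KRS1, the cytosolic lysyl-tRNA synthetase, was lower at -2.22 ± 0.10, -1.91 ± 0.10 and -1.96 ± 0.10, and MSK1, the mitochondrial one, higher at 1.48 ± 0.13, 1.51 ± 0.13 and 1.44 ± 0.13 in YPS606, Y55 and UWOPS87_2421. The pair of synthetases thus moved in opposite directions. In caffeine LYP1 fell in YPS606 at -0.69 ± 0.10 and rose in BY4742 at 0.26 ± 0.10, and the difference of these responses was -0.95 ± 0.13 (edgeR adjusted p = 0.000103). LYP1 was not called in Y55, at -0.17 ± 0.10 (0.260), or in UWOPS87_2421, at -0.06 ± 0.10 (0.659). Of the 10 genes, caffeine raised 5 and lowered 2 in YPS606 and raised 6 and lowered 2 in BY4742. It raised 3 in Y55 and 5 in UWOPS87_2421 and lowered 0 in both. Of all genes, 40.5%, 52.5%, 14.4% and 27.7% were called in YPS606, BY4742, Y55 and UWOPS87_2421.

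Of 6 targets of the retrograde pathway, which signals from mitochondria and supplies 2-oxoglutarate, caffeine raised 5 in YPS606, 2 in Y55, 4 in UWOPS87_2421 and 3 in BY4742, and lowered 0, where 20.5%, 8.64%, 14.7% and 27.5% of all genes were called higher. The targets called in BY4742 were 3 of 6, beside 52.5% of all genes called either way. CIT2, the peroxisomal citrate synthase, averaged 2371 ± 252 CPM in BY4742 in caffeine, against 72.3 ± 12.7 CPM without, and DLD3, a lactate dehydrogenase, 4294 ± 606 CPM, against 186 ± 16.8 CPM (SD, n = 3 each). In BY4742 these rises stood beside that of LYS1, while LYS9 and LYS20 were not called. In the other strains DLD3 rose beside falls of LYS9 and LYS20. In YPS606 LYS1 was called higher as well, a call lost without library 30, 38 or 42. In Y55 and UWOPS87_2421 LYS1 was not called. A link between these changes was not tested. CIT2 rose by 3.21 ± 0.54 on the log2 scale in YPS606 (SE, edgeR adjusted p = 0.000121). It was not called in Y55, at 0.72 ± 0.50 (0.362), or in UWOPS87_2421, at 0.66 ± 0.50 (0.3525). DLD3 rose by 2.95 ± 0.25 in YPS606, 2.63 ± 0.25 in Y55 and 3.29 ± 0.25 in UWOPS87_2421 on the log2 scale (SE, edgeR adjusted p of 1.18e-06 or less).

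The genes most like the pathway were sought by the root mean square difference, over 24 libraries, between a gene's centred log2 CPM and the mean of LYS1, LYS4, LYS9, LYS12, LYS20 and LYS21. Among the nearest genes other than the members were KSS1 (0.220), YAF9 (0.234), NFG1 (0.235) and SHU2 (0.252), where the median gene was at 0.531. KSS1 encodes a MAP kinase. Among the members LYS12 (0.189) and LYS4 (0.220) were nearest to this mean, although they were part of it. LYS20 (0.332), LYS21 (0.445), LYS9 (0.481), LYS14 (0.558) and LYS1 (0.644) were farther, so the members did not share 1 profile.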

How the data were processed

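The authors extracted total RNA, made stranded mRNA libraries and sequenced single-end reads, which they trimmed with Trimmomatic 0.36 and pseudo-aligned with kallisto 0.44.0 to reference transcripts (build R64 per the labels), with no strand option stated. The same reference served all strains. The deposited files give per library the estimated count and the effective length of 6713 transcripts, and the TPM that the authors' kallisto run made from them. TPM was used only within libraries. The authors' own DESeq2 comparison tables, with fold changes and p-values, were not used. Per-library depth was between 8714049 and 29524968 estimated counts. Group means rest on 3 libraries per group, and the spread behind SE and p-values was pooled over all libraries of the fit.

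Estimated counts were rounded and fitted with edgeR 4.0.16 (limma 3.58.1, R 4.3.3): filter on low counts over the 8 groups (6400 genes kept, 99.998% of counts), TMM factors, and a quasi-likelihood test on 1 fit of 24 libraries with 1 coefficient per group. Adjusted p-values are Benjamini-Hochberg over all genes within each of 22 comparisons (threshold 0.05), and SE is the size of the log2 fold change divided by the square root of F. With 3 against 3, an exact permutation test cannot go below 0.1. The LYS2 interval is the exact conditional binomial one. Pairs of libraries in a group differed by more than sampling noise (chi-square per degree of freedom from 8.83 to 309). Gene names came from the R64 gene table, which matched 6026 identifiers. Sequences and positions are from the R64 RefSeq genome. The method was tested on simulated counts.

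All members were described whatever their values, and other genes came from lists or were the 5 with the nearest profile; members and lists were chosen with earlier results of these data known. Alternatives were DESeq2 1.42.0, RLE size factors, no filter, effective length offsets, a separate fit per comparison with no other libraries, a threshold of 0.01, a minimum change of 1.5-fold, LYS20 and LYS21 summed, each library left out and, chosen after seeing the data, library totals without TMM factors and a block for sets of consecutive library numbers. The values of 1 of the listed genes are not reported here.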

Additional observations from a re-analysis of the deposited data

Results flagged for a closer look

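Of the 6 pairs of strains, 4 differed in the caffeine response of at least 1 member by the interaction test of edgeR. In YPS606 minus BY4742 the differences on the log2 scale were -1.77 for LYS1, -1.07 for LYS4, -1.92 for LYS9, -1.62 for LYS12, -0.96 for LYS14 and -1.13 for LYS20. In Y55 minus BY4742 they were -2.51 for LYS1, -0.93 for LYS4, -1.45 for LYS9, -1.24 for LYS12, -1.20 for LYS14 and -1.18 for LYS20. In UWOPS87_2421 minus BY4742 they were -2.10 for LYS1, -1.06 for LYS4, -1.52 for LYS9, -1.13 for LYS12, -0.93 for LYS14 and -1.19 for LYS20. These 3 sets share the BY4742 libraries. The pair of YPS606 minus Y55 differed in LYS1, at 0.75. Groups of 3 libraries were not tested for single deviating values.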

How the results depend on the processing

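Size factors by RLE, a fit without the low-count filter and effective length offsets kept the direction and the call of all 166 member values, and DESeq2 of 164, with 2 more called. A fit of only the groups compared kept 143 (16 calls lost, 7 gained), and leaving out 1 library at a time kept 1182 of 1266 (67 lost, 17 gained, 0 reversed). Library totals without TMM factors turned LYS9 under caffeine in BY4742 to 0.35, gave a call to LYS14 under caffeine in YPS606 and gave 7 called members for YPS606 against BY4742 in caffeine. With LYS20 and LYS21 summed, the total in YPS606 was at 0.999 against BY4742, 0.154 against Y55 and 0.057 against UWOPS87_2421 without caffeine. It was at 0.049 against UWOPS87_2421 in caffeine. The separate estimate of LYS21 was below 0 in each of these comparisons.

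The number of members called was 3 for Y55 against BY4742 in caffeine, and 2 for YPS606 against UWOPS87_2421 without caffeine and against Y55 and UWOPS87_2421 in caffeine, both at an adjusted p-value under 0.01 and at 1.5-fold or more. At 0.01, caffeine in Y55 had 3 and the response of YPS606 minus Y55 0. A fit of only the groups compared gave 0 for YPS606 against Y55 without caffeine, 2 and 7 for YPS606 against UWOPS87_2421 without and in caffeine, 1 for caffeine in Y55 and 0 for the response of YPS606 minus Y55. The 7 exceed the 4 of the fit of all libraries. The cause was not tested.

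With each library left out, the counts ran from 2 to 6 for YPS606 against UWOPS87_2421 and against Y55 without caffeine, from 2 to 3 and from 2 to 4 for these in caffeine, from 3 to 5 for Y55 against BY4742 in caffeine, from 3 to 6 for caffeine in Y55, from 0 to 2 for the response of YPS606 minus Y55 and from 0 to 1 for YPS606 minus UWOPS87_2421. Over all genes, the count of calls left the range of 1.5 times in 0 of 22 comparisons under RLE, no filter, length offsets and library totals. It did so in 11 at 0.01 (0.422 to 0.604 times) and in 13 at 1.5-fold (0.513 to 0.649 times). A fit of only the groups compared called 3659 genes instead of 2343 for UWOPS87_2421 against BY4742 and 318 instead of 1256 for YPS606 against Y55, both without caffeine. It called 119 instead of 922 for caffeine in Y55, 2786 instead of 1771 for caffeine in UWOPS87_2421, and, for the responses, 1222 instead of 1860 in Y55 minus BY4742, 158 instead of 329 in YPS606 minus Y55 and 417 instead of 258 in YPS606 minus UWOPS87_2421. DESeq2 called 431 instead of 258 in the last of these and 1 instead of 0 in UWOPS87_2421 minus Y55. Leaving out 1 library did so in 17 of 168 fits over 5 comparisons. The labels give each library its own number, in 3 sets of 8 consecutive numbers that hold 1 library of each group, and nothing says what a set is. A fit with a replicate block for these sets, chosen after seeing the data, kept the direction and the call of 164 of 166 member values and lost 2 calls, LYS20 in YPS606 against UWOPS87_2421 without caffeine (0.498, adjusted p = 0.0605) and LYS21 under caffeine in UWOPS87_2421 (-0.495, 0.0527), and moved 0 of 22 counts over all genes by over 1.5 times. Not all libraries of 1 set deviated together: the correlation over genes of deviations from the group means had a median of 0.027 in 84 pairs of the same set and -0.019 in 168 pairs of other sets, and 28 of the 84 and 38 of the 168 were over 0.1. Apart from LYS2 in BY4742, members had at least 419 counts in every library.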
